A study of Mus musculus with 10 samples.

Results

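The glycolysis genes followed here are 10: Slc2a1, Hk1, Hk2, Pfkp, Aldoa, Gapdh, Pgk1, Pgam1, Pkm and Ldha. They were chosen by name, out of 28808 gene symbols in the 10 deposited count tables, and every table held a row for each of them. They were followed by day in 3 kinds of cell barcode taken from kidney cortex, which were sorted by the counts of marker genes: proximal tubule, injured tubule and distal tubule. The tissue came from mice aged 4 weeks, whose kidneys were normal in the control and injured in all other groups. The control, day 1, day 2 and day 4 had a single library (1 each), while day 7, day 11 and day 14 after the injury were sampled in 2 libraries each. The labels give no kind of injury, strain, sex, genotype or animal, and the injured groups are described by their day. No replicate check exists for the control or for days 1, 2 and 4. Nothing in the labels says that the 2 libraries of a day are separate animals, so p-values between days measure only the spread between these libraries, which may be technical. Where kinds of barcode are compared within a library, the spread is that of their difference over libraries of different days. Libraries of different days then serve as replicates, and real change between days enters the error.

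Glycolysis breaks glucose down to pyruvate in the cytosol, and lactate dehydrogenase can turn pyruvate into lactate. In the kidney cortex the proximal tubule is known for making glucose and for burning fatty acids in its mitochondria, while the thick ascending limb and distal convoluted tubule carry more hexokinase and pyruvate kinase activity. The 10 genes run along the pathway. Slc2a1 encodes the glucose transporter GLUT1, Hk1 and Hk2 are hexokinases that trap glucose as glucose 6-phosphate, and Pfkp is the platelet-type phosphofructokinase, a committing step. Aldoa splits the hexose, Gapdh and Pgk1 carry out the oxidation and the first ATP-yielding step, Pgam1 moves the phosphate, Pkm is the muscle-type pyruvate kinase and Ldha the A subunit of lactate dehydrogenase.

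Barcodes were called proximal when they held at least 3 counts over 10 proximal transport and metabolism markers, at least 3 times their distal counts and none of the injury markers. Distal barcodes held at least 3 counts over 6 markers of the thick limb and distal convoluted tubule, at least 3 times their proximal counts and none of the injury markers. Injured barcodes held at least 2 counts of Havcr1 (KIM-1) and Krt20 together and fewer than 3 distal counts. A barcode with more than 1 count of 12 leukocyte, endothelial, podocyte and fibroblast markers was left out of all 3. Of 64803 deposited barcodes, 52797 passed the filters on counts, genes and mitochondrial share. Of these 24231 were proximal, 6027 distal and 3086 injured. The injured class was large enough to use in 5 libraries: 621 barcodes on day 1, 111 on day 2, 1443 on day 4, and 410 and 484 on day 7. It held 3 barcodes in the control and 1 to 6 in each library of days 11 and 14, which were not used at these thresholds. In these 5 libraries the 10 proximal markers summed to 1492 to 5815 CPM in injured barcodes and 4125 to 10196 in proximal ones, with none of the 10 at 0 in either.

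Library totals ran from 7091848 to 31632205 unique molecular counts (UMIs), and the summed classes from 224552 UMIs (proximal, day 7 replicate 1) to 15349825 (proximal, day 14 replicate 1). Counts of the 2 libraries of a day were further apart than sampling noise in both classes (chi-square over its degrees of freedom, 3.87 to 25.8). Of the 52797 kept barcodes, 124 carried a sequence found in more than 1 library. Levels below are CPM, the usual depth-scaled counts, on library totals scaled by edgeR's TMM method, and are set side by side only within a gene. Intervals of levels are exact Poisson 95% intervals for single libraries, and those of count ratios and shares are exact binomial 95% intervals. Ratios between days sum the 2 libraries of a day where there are 2. All intervals cover counting error only and leave out the spread between libraries.

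The sequences just upstream of Hk2 and Slc2a1 are shown because these 2 genes moved most in injured barcodes and are textbook targets of hypoxia-inducible factor, whose core motif is ACGTG or GCGTG on either strand. Matches are in capitals and so is a match on the other strand, which reads CACGT or else CACGC here. The stretches are from RefSeq on build GRCm38.p6, run 5′ to 3′ toward the transcription start, and leave out bases that GENCODE M21 annotates as exon. Hk2 lies on chromosome 6 (82725025 to 82774454, minus strand), and the stretch shown is chr6:82774455-82774704. Slc2a1 lies on chromosome 4 (119108711 to 119137983, plus strand), and its stretch is chr4:119108495-119108710.
Hk2: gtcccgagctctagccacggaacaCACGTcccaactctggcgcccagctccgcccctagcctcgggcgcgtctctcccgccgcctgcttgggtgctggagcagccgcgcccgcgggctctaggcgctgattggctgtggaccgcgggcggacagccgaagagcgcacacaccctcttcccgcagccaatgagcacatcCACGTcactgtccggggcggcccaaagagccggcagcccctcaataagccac
Slc2a1: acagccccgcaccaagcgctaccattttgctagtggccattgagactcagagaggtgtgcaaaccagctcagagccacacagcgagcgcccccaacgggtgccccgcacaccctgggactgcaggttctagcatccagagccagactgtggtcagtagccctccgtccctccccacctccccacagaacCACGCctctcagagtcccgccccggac
The Hk2 stretch held 2 matches, at bases 25 and 199 from its 5′ end, and that of Slc2a1 held 1, at base 190. The full 250 bases of Slc2a1 held 2 matches, of which the second runs into the annotated exon and is cut off here. Over the 250 bases upstream of every RefSeq start, 12 of the 15 windows of the 10 genes held a match, as did 38.6% of all 32851 windows. Both the motif and the genes printed were chosen after the values were seen. A match is a string of letters and no evidence of binding.

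**Figure D1:**
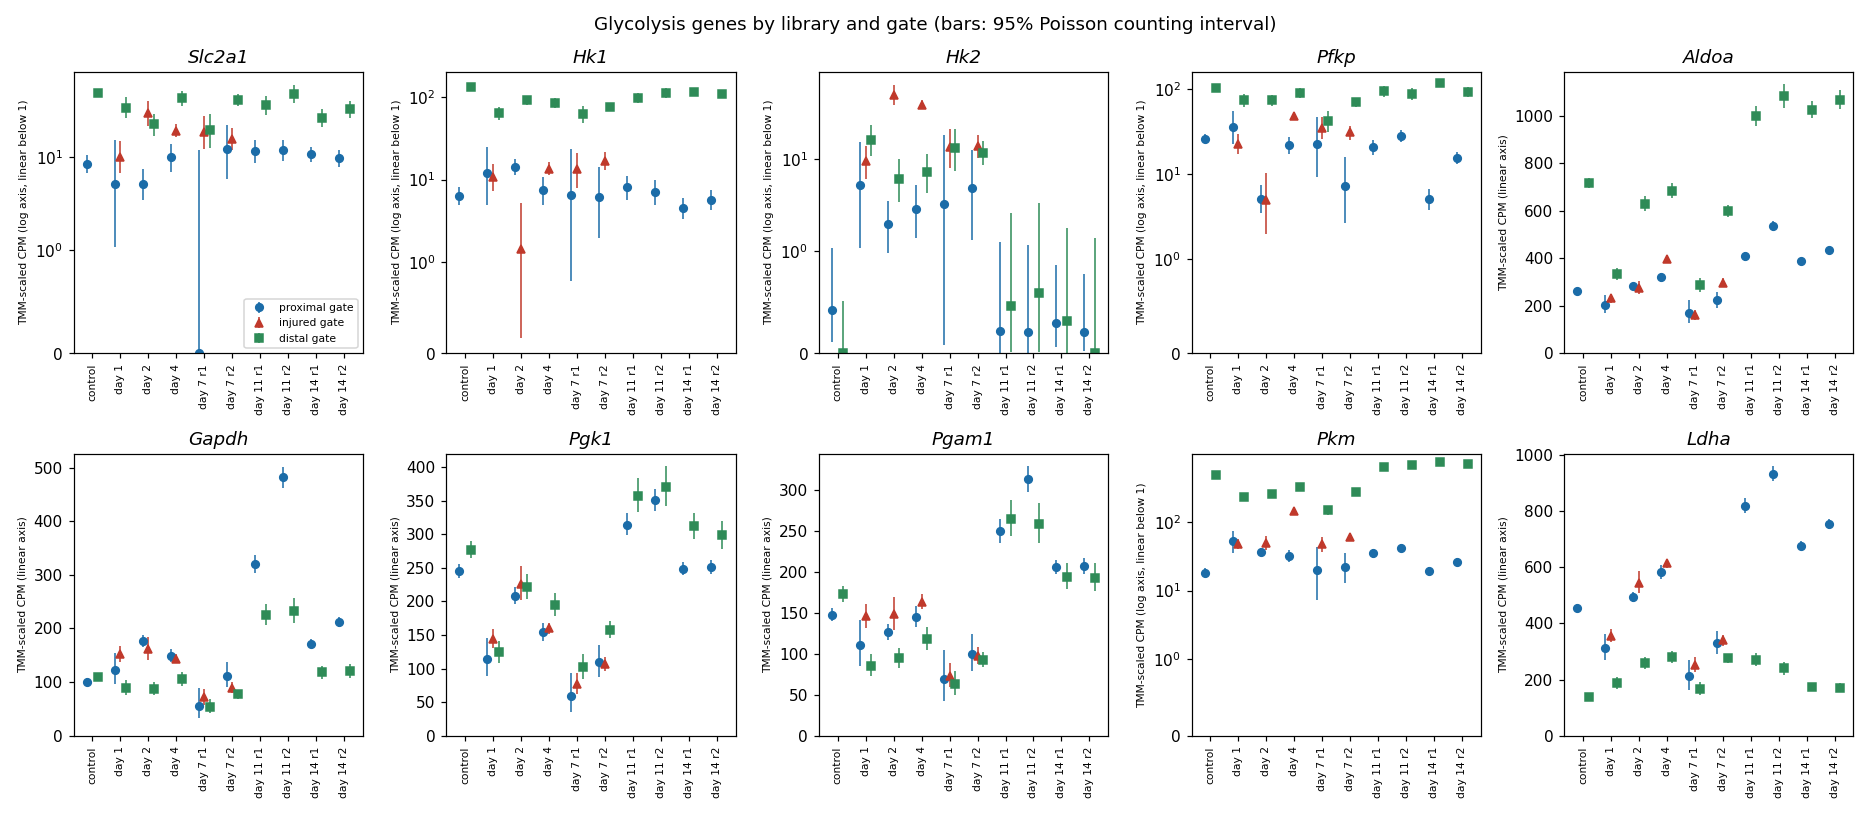
Level of each of the 10 genes in TMM-scaled CPM by library, for proximal (circles), injured (triangles) and distal (squares) barcodes; bars are exact Poisson 95% counting intervals, and the axis is logarithmic above 1 for Slc2a1, Hk1, Hk2, Pfkp and Pkm and linear for the rest. Hk2 sat at or below 0.59 in every class of the control and of days 11 and 14, and Gapdh peaked in the 2 proximal libraries of day 11.

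Injured barcodes were set against proximal barcodes of the same library, which asks how the pathway differed between injured and marker-bearing proximal cells at the same time. Of the 10 genes, 3 rose and none fell: Hk2, Slc2a1 and Pkm. Hk2 had a log2 change of 3.66 (SE 0.49, adjusted p = 0.000851), Slc2a1 one of 1.497 (SE 0.39, adjusted p = 0.0181) and Pkm one of 1.11 (SE 0.30, adjusted p = 0.0195), from quasi-likelihood fits in edgeR that keep library as a block, Benjamini-Hochberg adjusted over 10256 genes. The proximal sums of Hk2 and Slc2a1 alone would not have passed the filter on low counts. These genes entered the test through their injured sums, where they are high, so their p-values are no separate support. Both kept their calls with no filter. Of all genes tested 27.2% were called, 13.3% as higher and 14% as lower, so 3 of 10 lies near the share of the whole transcriptome. The other 7 genes were not called, with log2 changes of -0.0087 to 0.67. The median change of the 10 genes was 0.17, against -0.0026 over all genes tested. Without day 4, 1068 genes were called in all, against 2794.

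Hk2, the inducible hexokinase, had 25 UMIs in injured barcodes on day 1, 70 on day 2, 323 on day 4, and 18 and 50 in the day 7 libraries. In proximal barcodes of the same libraries it had 3, 11, 10, 1 and 4 UMIs. Its level in injured barcodes was 9.38 CPM on day 1, 49.6 on day 2, 38.5 on day 4 and 13.4 and 13.9 on day 7. In proximal barcodes it was 5.19, 1.96, 2.86, 3.27 and 4.87 in the same order. Injured barcodes were higher in all 5 libraries and the classes did not overlap, while the size of the difference varied widely between days. The share of all genes likewise apart was not counted, so this is not read as a trait of Hk2. The ratio of injured to proximal was 25.3 on day 2 (95% interval 13.3 to 53.0) and 13.5 on day 4 (7.23 to 28.4). It was 1.81 on day 1 (0.552 to 9.36), and 4.11 (0.649 to 171) and 2.85 (1.05 to 10.9) in the day 7 libraries, so on day 1 and in day 7 replicate 1 the difference was not detectable at this depth within a single library. Without day 2 the log2 change was 2.80 and was still called.

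The share of barcodes with Hk2 depends on depth, so it is given as counted and at equal depth. A UMI of Hk2 was present in 3.22% of injured barcodes on day 1, 24.3% on day 2, 12.8% on day 4 and 3.41% and 8.26% on day 7. In proximal barcodes the shares were 1.27%, 0.541%, 0.706%, 0.735% and 1.48%. Median depth favoured the injured class, at 2376 against 1525 UMIs on day 1, 5174 against 1823 on day 2, 2881 against 1808 on day 4, and 1698 against 1171 and 3192.5 against 1704 on day 7. Thinned to 1000 UMIs per barcode, the expected share on day 2 was 7.92% of injured against 0.138% of proximal barcodes, and on day 4 it was 4.18% against 0.349%. On day 1 it was 1.12% against 0.791%, and on day 7 it was 1.14% against 0.745% and 2.23% against 0.549%. The gap on day 1 and in day 7 replicate 1 was thus smaller at equal depth, where the proximal values rest on 3 UMIs and 1 UMI. The thinned shares leave out the shallower barcodes, 11 injured and 403 proximal on day 2 and 181 and 249 on day 4. In these 2 libraries the single barcode with most Hk2 held 7 and 18 UMIs, so the difference did not come from 1 barcode. Distal barcodes of the same libraries held a UMI of Hk2 in 3.75% on day 2 (median depth 3252) and 2.85% on day 4 (median depth 2512). In the control 0 of 1214 distal barcodes did (median depth 4153), where 3 counts would be a share of 0.247% and the exact 95% interval reaches 0.303%. These limit barcodes with a UMI, not cells expressing the gene. The part of free RNA in these shares was not tested.

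Slc2a1, the GLUT1 transporter, stood at 10.1 CPM in injured barcodes on day 1, 29.8 on day 2, 19.3 on day 4 and 18.7 and 15.8 on day 7. In proximal barcodes it stood at 5.19, 5.17, 9.997, 0 and 12.2. The injured value was the higher in all 5 libraries. Day 7 replicate 1 had no Slc2a1 UMI in its 136 proximal barcodes. With these set at a floor of 3 counts, its injured barcodes were 1.90-fold higher, and the exact 95% interval starts at 1.44. The day 2 count ratio was 5.76 (3.51 to 9.59) and that of day 4 was 1.93 (1.33 to 2.87). Day 1 gave 1.95 (0.601 to 10.1) and day 7 replicate 2 gave 1.30 (0.658 to 2.86). Without day 2 the log2 change was 0.90 and the call was lost. It was also lost with no library block (1.37) and with lower marker thresholds for the classes (0.87). Those thresholds also brought the control, day 11 replicate 1 and both day 14 libraries into the fit, so the libraries changed as well.

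Pkm, the muscle-type pyruvate kinase gene, stood at 47.6 CPM in injured barcodes on day 1, 49.6 on day 2, 142 on day 4 and 47.8 and 60.3 on day 7. Proximal values were 51.9, 36.2, 32.0, 19.6 and 21.9. Injured barcodes were higher in 4 of 5 libraries with a ratio of 4.45 on day 4 (3.66 to 5.45). The ratio was 1.37 on day 2 (1.03 to 1.81), and 2.44 (1.06 to 6.89) and 2.75 (1.70 to 4.73) on day 7, so the day 7 intervals overlapped that of day 4. On day 1 the ratio was 0.919 (0.613 to 1.42). Without day 4 the log2 change was 0.68 and without day 7 replicate 1 it was 1.12, and neither was called. With at least 3 proximal UMIs required of injured barcodes it was 0.85, also not called, whereas Hk2 and Slc2a1 kept their calls with that requirement. Pkm was not called either with no library block (1.08) or with lower marker thresholds (0.79). Those thresholds also brought in the further libraries named for Slc2a1. The 2 main splice forms of Pkm cannot be told apart in these gene counts.

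**Figure D2:**
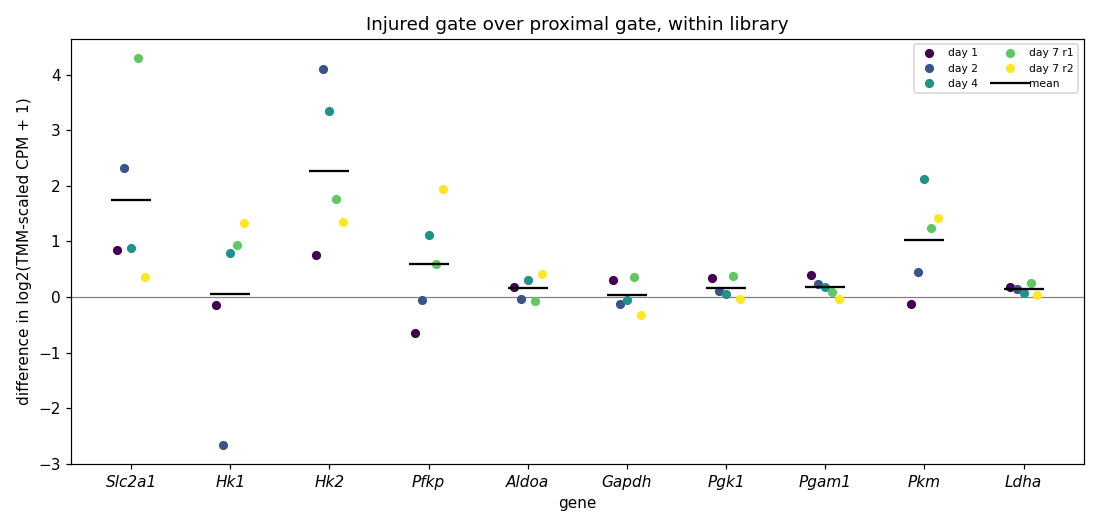
Difference between injured and proximal barcodes of the same library in log2(TMM-scaled CPM + 1), for the 10 genes in 5 libraries (points) with their mean (bar). Hk2 and Slc2a1 lie above 0 in all 5 libraries, Pkm in 4, and Aldoa, Gapdh, Pgk1, Pgam1 and Ldha lie between -0.33 and 0.41.

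Ldha, Pgk1, Aldoa, Pgam1 and Gapdh did not pass. Ldha had a log2 change of 0.12 (SE 0.11), Pgk1 0.14 (SE 0.12), Aldoa 0.16 (SE 0.12), Pgam1 0.18 (SE 0.13) and Gapdh -0.0087 (SE 0.13). Across days, Ldha ran from 253 to 614 CPM over the 5 injured sums and from 213 to 582 over the matching proximal sums. Pfkp was higher in injured barcodes on day 4 (49.1 against 21.99 CPM) and in both day 7 libraries (35.1 against 22.9, and 31.1 against 7.30). It was not higher on day 1 (22.9 against 36.3) or day 2 (4.96 against 5.17), and its log2 change of 0.67 (SE 0.32, adjusted p = 0.151, edgeR with Benjamini-Hochberg adjustment) was not called. Hk1, the constitutive hexokinase, was 13.6 against 7.43 CPM on day 4 and 16.9 against 6.09 in day 7 replicate 2, but rested on 2 UMIs in injured barcodes on day 2 (1.42 against 14.3). Its log2 change was 0.16 (SE 0.45).

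Other genes of glucose metabolism were counted in the same comparison, where 27.2% of all genes were called, 13.3% as higher and 14% as lower. Of 25 further glycolysis and lactate genes 15 were tested, and 1 rose and 3 fell, a share near that of all genes. Eno1, the ubiquitous enolase, rose by 0.43 (SE 0.12, adjusted p = 0.0186). Among those that fell, the transporter gene Slc2a2 (GLUT2) had a change of -0.45 (SE 0.15, adjusted p = 0.0462) and Tpi1, triosephosphate isomerase, one of -0.40 (SE 0.12, adjusted p = 0.0283), all by edgeR with Benjamini-Hochberg adjustment. The list's median was -0.15. Of 5 gluconeogenesis genes 4 fell in all 5 libraries: G6pc (-2.78, SE 0.35), Pck1 (-2.23, SE 0.38), Pcx (-1.94, SE 0.30) and Fbp1 (-1.82, SE 0.26), with a list median of -1.94. Fbp2 was not called. Proximal barcodes were required to hold proximal markers and injured ones were not. On day 7, 166 of 410 and 259 of 484 injured barcodes held at least 3 proximal UMIs. The part of this in the fall of these genes was not tested.

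Hypoxia response genes were counted because Slc2a1, Hk2, Pgk1 and Ldha are among the known targets of hypoxia-inducible factors. Of 15 listed genes 12 were tested, none rose and 5 fell, with a list median of -0.54, where 14% of all genes tested were lower. The genes that fell were Vegfa (-1.37, SE 0.17), the vascular growth factor, Epas1 (-1.19, SE 0.28), which encodes HIF-2 alpha, Ero1l (-0.61, SE 0.19), Ndrg1 (-0.59, SE 0.11) and Bnip3 (-0.54, SE 0.16). Vegfa was lower in injured barcodes of all 5 libraries. All members and lists were picked with earlier results of these data known, so these counts describe the lists and support nothing beyond them.

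**Figure D3:**
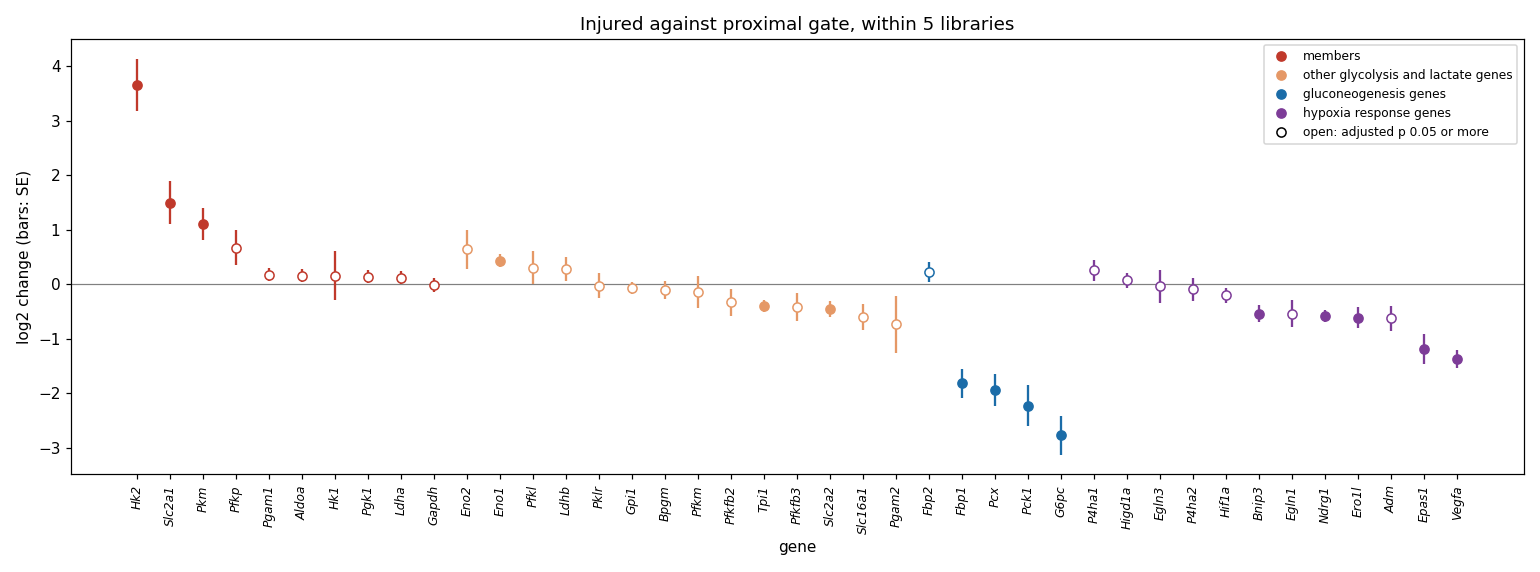
Log2 change of injured against proximal barcodes within 5 libraries for the 10 glycolysis genes, further glycolysis and lactate genes, gluconeogenesis genes and hypoxia response genes that were tested, with 1 gene not shown; bars are SE and filled points passed an adjusted p of 0.05 (edgeR). Hk2 lies highest at 3.66 and G6pc lowest at -2.78.

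Markers of other cell types differed between the classes. Sums of these markers are on plain, unscaled totals. The 7 macrophage markers summed to 85.9 CPM in injured barcodes on day 1, 102 on day 2, 742 on day 4 and 1858 and 1799 on day 7. In proximal barcodes they summed to 102, 129, 496, 2120 and 939. On day 4 and in day 7 replicate 2 the sums were higher in the injured class, and on days 1 and 2 and in day 7 replicate 1 in the proximal class. C1qa was at 0 in injured barcodes of day 1 and C1qb and C1qc in those of day 2. C1qa, C1qb, C1qc and Csf1r were at 0 in proximal barcodes of day 1, and no macrophage marker was at 0 in either class on days 4 and 7. With no UMI of a not-tubular marker allowed, the calls of Hk2, Slc2a1 and Pkm held. Neutrophil markers summed to 112 in injured and 176 in proximal barcodes on day 1, and to 24.2 and 139 on day 2. In the libraries of days 4 and 7 they summed to 1.81 to 14.8 in injured and 29.4 to 34.6 in proximal barcodes. Erythroid markers summed to 884 CPM in injured and 1112 in proximal barcodes on day 1, and to 7.52 and 36.4 on day 2. They summed to 136 and 303 on day 4, and to 1587 and 1127, then 9.78 and 43.3, in the day 7 libraries. Alas2 was at 0 in injured barcodes of day 2 and proximal ones of day 1. It was also at 0 in proximal barcodes of both day 7 libraries and injured ones of replicate 2. Collecting duct markers were lower in injured than in proximal barcodes of all 5 libraries, at 505 against 669 CPM on day 1, 101 against 720 on day 2, 252 against 432 on day 4, and 394 against 410 and 86.6 against 262 on day 7. Slc4a1 was at 0 in injured barcodes of day 2 and in proximal ones of day 7 replicate 1. The median mitochondrial share was lower in injured barcodes of all 5 as well, at 3.68% to 11.3% against 5.77% to 14.4%. The part of these cell types and shares in the results was not tested.

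Distal barcodes were compared with proximal barcodes in all 10 libraries. Glycolysis genes differed widely here: of 9 tested, 6 were higher in distal barcodes and 2 lower. Of all 10929 genes tested 62.7% were called, 30.8% as higher and 31.9% as lower, and the count is read against that. Hk2 had too few counts to be tested. Pkm was higher by a log2 change of 4.01 (SE 0.31, adjusted p = 4.06e-08), Hk1 by 3.92 (SE 0.22, adjusted p = 1.41e-09), Pfkp by 2.56 (SE 0.31, adjusted p = 4.65e-06), Slc2a1 by 2.08 (SE 0.15, adjusted p = 1.38e-08) and Aldoa by 1.25 (SE 0.11, adjusted p = 1.34e-07), by edgeR with Benjamini-Hochberg adjustment. Each of these was higher in 10 of 10 libraries. Pgk1 was higher by 0.35 (SE 0.073, 10 of 10 libraries), a call lost with no filter on low counts (0.25) and with no library block (0.34). Ldha was lower in 10 of 10 libraries (-1.22, SE 0.16, adjusted p = 1.23e-05) and Gapdh in 9 of 10 (-0.48, SE 0.11, adjusted p = 0.00162), and the Gapdh call was lost with no library block (-0.54). Pgam1 was not called (-0.056, SE 0.091). The median of the 9 genes was 1.25. Collecting duct markers summed to 873 to 3700 CPM in distal and 228 to 720 in proximal barcodes and were higher in distal ones of all 10 libraries. Macrophage markers were lower in distal than in proximal sums of all 10, at 3.95 to 543 CPM against 13.9 to 2120. The part of these cell types in the result was not tested.

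Pkm in distal barcodes ran from 147 to 734 CPM with a median of 406 over 10 libraries, and in proximal barcodes from 18.1 to 51.9 with a median of 29.2. Hk1 ran from 62.4 to 134 (median 95.1) in distal and from 4.52 to 14.3 (median 6.81) in proximal barcodes. Pfkp ran from 42.1 to 118 (median 89.4) and from 5.11 to 36.3 (median 21.4). Slc2a1 ran from 19.4 to 49.2 (median 35.2) and from 0 to 12.2 (median 9.85). Distal and proximal ranges did not overlap for any of these 4 genes. How many of all genes were likewise apart was not counted. Since 62.7% of all genes tested were called here, this is not read as a trait of these genes. The ranges overlapped for Aldoa (286 to 1083 against 170 to 535), although each library's own distal value was the higher. Ldha ran from 138 to 280 (median 214) in distal and from 213 to 934 (median 539) in proximal barcodes.

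For each gene the classes can be put in order in the 5 libraries that hold all 3. For Pkm and Hk1 distal barcodes were highest in all 5, and injured barcodes lay between distal and proximal ones for Pkm in 4 of them. Slc2a1 in injured barcodes exceeded the distal value on day 2 only (29.8 against 22.5 CPM), with overlapping intervals. For Hk2 the order differed: injured barcodes were above distal ones on day 2 (49.6 against 6.03) and day 4 (38.5 against 7.21) and below them on day 1 (9.38 against 16.0) with overlapping intervals. On day 7 they lay at 13.4 against 13.0 and at 13.9 against 11.7, again with overlapping intervals.

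**Figure D4:**
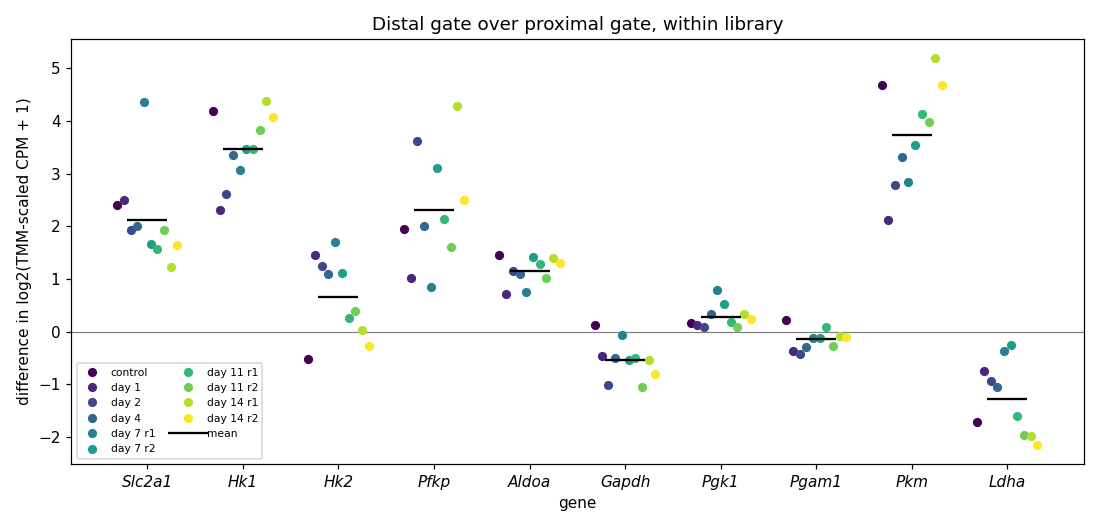
Difference between distal and proximal barcodes of the same library in log2(TMM-scaled CPM + 1), for the 10 genes in 10 libraries (points) with their mean (bar). Hk1, Pkm, Pfkp and Slc2a1 lie above 0 in all libraries and Ldha below 0 in all, and the Slc2a1 value of 4.35 in day 7 replicate 1 rests on a proximal count of 0.

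Other genes of glucose metabolism also differed between these segments. Those named here were picked after their values were seen. Of 16 further glycolysis and lactate genes tested, 10 were higher and 5 lower in distal barcodes, where 62.7% of all genes were called, 30.8% as higher and 31.9% as lower. Slc16a7 (the monocarboxylate transporter MCT2, 4.92), Aldoc (4.18), Pgam2 (4.13), Pfkm (2.18) and Pfkl (1.66) were among those higher, and Slc2a2 (-4.83), Pklr (-4.35) and Slc16a1 (-2.88) among those lower, each as a log2 change. All 5 gluconeogenesis genes were lower, by -4.23 (Pcx) to -5.73 (Pck1). Of 14 hypoxia response genes tested 4 were higher and 7 lower against those same shares, with a list median of -0.29. The higher genes include Pdk1 (3.45), which encodes a pyruvate dehydrogenase kinase, and Egln3 (2.26), and the lower ones are Ndrg1 (-2.34), P4ha2 (-2.30), P4ha1 (-1.51), Adm (-1.16), Epas1 (-0.88), Vegfa (-0.77) and Bnip3 (-0.34). Within distal barcodes a split of thick limb from distal convoluted markers was looked at as a description. Pkm was higher in the convoluted group in 9 of 9 libraries with enough barcodes (median ratio 1.97, range 1.56 to 2.41), as was Pgk1 (median ratio 1.26). Slc2a1 (median ratio 0.740) and Pfkp (0.852) were each higher in 1 of 9. Convoluted sums of Slc2a1 held from 3 UMIs (day 1) to 53 (control), so its ratios rest on few counts. The share of all genes that differed as often was not counted.

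Days 7, 11 and 14 were next compared with the control within proximal barcodes, with the lone control assumed to vary like these replicated days. These comparisons share the control library, so their values are only set side by side. On day 7, Hk2 was called as higher and Pgk1 as lower, and the other 8 genes were not called. Of all 14481 genes 14.1% were called, 6.44% as higher and 7.69% as lower, so 2 of 10 lies near that share. Pgk1, phosphoglycerate kinase, was at 245 CPM in the control and at 58.9 and 110 on day 7. Both day 7 libraries were below the control. The log2 change was -1.20 (SE 0.29, adjusted p = 0.0153, edgeR with Benjamini-Hochberg adjustment). This call was lost when only the control and day 7 were fitted, where calls over all genes fell as well. In the same proximal sums macrophage markers stood at 13.9 CPM in the control, with C1qc at 0, and at 2120 and 939 on day 7, with none of the 7 at 0. Erythroid markers stood at 16.9 CPM in the control and at 1127 and 43.3 on day 7, with Alas2 at 0 in both day 7 libraries. The median mitochondrial share was 22.8% in the control and 5.77% and 9.66% on day 7. The part of these in the day 7 results was not tested. Under DESeq2 the split of calls over all genes on day 7 was 56.7% higher, against 45.6% in edgeR, and the median change of all genes moved from -0.089 to 0.035.

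The Hk2 call in proximal barcodes rests on 1 and 4 UMIs on day 7 and 4 in the control. Here too Hk2 passed the filter on low counts only through libraries of days 1, 2, 4 and 7. It is higher there, so its p-value is no separate support. Levels were 3.27 and 4.87 against 0.425 CPM, a ratio of 10.4 (95% counting interval 2.25 to 52.7). The fit gave 3.54 (SE 1.06, adjusted p = 0.0422, edgeR with Benjamini-Hochberg adjustment), which 10 of 19 alternatives did not call, among them the fits without each library of days 7, 11 and 14. With only the compared groups it was not tested. Proximal Hk2 in the single libraries of days 1, 2 and 4 had 3, 11 and 10 UMIs. The ratios to the control were 12.2 (1.79 to 72.2), 4.62 (1.37 to 19.9) and 6.73 (1.94 to 29.4). These compare libraries and not conditions. On days 11 and 14 the libraries held 1 to 3 UMIs, with ratios of 0.508 (0.0460 to 3.54) and 0.603 (0.130 to 3.04).

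On day 11 in proximal barcodes, Gapdh, Pkm, Ldha, Pgam1 and Aldoa rose and none fell. That is 5 of 10, where 22.8% of genes were called and 10.7% as higher. Gapdh was at 100 CPM in the control and at 321 and 482 on day 11, and both libraries lay above every other proximal sum. The log2 change was 1.99 (SE 0.34, adjusted p = 0.00178). Pkm rose from 18.1 to 34.7 and 41.4 (1.06, SE 0.25, adjusted p = 0.0104), Pgam1 from 147 to 250 and 313 (0.93, SE 0.25, adjusted p = 0.0199), Ldha from 454 to 819 and 934 (0.94, SE 0.30, adjusted p = 0.0369) and Aldoa from 262 to 408 and 535 (0.84, SE 0.27, adjusted p = 0.0413), all by edgeR with Benjamini-Hochberg adjustment. Pgk1 (0.43), Slc2a1 (0.46), Hk1 (0.24), Pfkp (-0.10) and Hk2 were not called. The median of the 10 was 0.65 against 0.089 over all genes tested. Without day 11 replicate 2 only Gapdh kept its call (1.70), and 1367 genes were called in all, against 3306. Without day 11 replicate 1, Aldoa and Ldha lost theirs, as they did without either day 14 library.

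The Gapdh rise stood under every alternative tried (log2 change 1.70 to 2.24, adjusted p at most 0.0150 in edgeR or DESeq2 with Benjamini-Hochberg adjustment). In distal barcodes Gapdh rose on day 11 as well, from 110 to 225 and 233 CPM (1.15, SE 0.23, adjusted p = 0.00470), as did Ldha, from 138 to 271 and 240 (0.98, SE 0.26, adjusted p = 0.0197), by edgeR with Benjamini-Hochberg adjustment. These were the 2 of 10 genes called there, where 13.1% of 12416 genes were called, 5.55% as higher and 7.54% as lower. Without day 11 replicate 2 neither was called, and without replicate 1 Ldha was not. Without day 7 replicate 1 or replicate 2, 6 of the 10 genes were called in this comparison, and over all genes 2694 and 2678 were called, against 1625. Pgam1 (0.69, adjusted p = 0.0569), Aldoa (0.63), Pkm (0.49) and Pgk1 (0.48) were positive and not called by edgeR with Benjamini-Hochberg adjustment. The day 11 libraries also differed in what else the proximal barcodes held. The 5 erythroid markers summed to 2679 and 1289 CPM in them against 16.9 in the control and 146 and 85.6 on day 14, with none of the 5 at 0 in these libraries. In distal barcodes they summed to 1665 and 445 CPM on day 11, with Alas2 at 0 in replicate 2, against 5.70 in the control and 430 and 1086 on day 14. Macrophage markers stood at 98.1 and 104 CPM in proximal barcodes on day 11 against 13.9 in the control, and at 42.4 and 63.1 against 3.95 in distal ones. The 10 proximal markers summed to 459 and 703 CPM in distal barcodes on day 11, against 224 in the control. The median mitochondrial share on day 11 was 15.3% and 11.7% in proximal barcodes against 22.8% in the control, and 20.6% and 15.6% in distal ones against 33.8%. Median depth of proximal barcodes was 1437.5 and 1367 UMIs on day 11 against 2603.5 in the control. In barcodes of 1000 to 5000 UMIs the Gapdh change was still called, and that of Pkm (0.76) was not. The part of these in the day 11 results was not tested.

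On day 14 none of the 10 genes was called against the control by edgeR in either class, where 9.93% of genes were called in proximal barcodes (4.36% higher, 5.57% lower) and 3.2% in distal ones (1.49% higher, 1.71% lower). At an unadjusted p of 0.05 there were 3 in proximal barcodes (Pfkp, Gapdh and Aldoa) and 2 in distal ones (Pkm and Slc2a1), against 3896 of all 14481 genes in proximal and 2493 of all 12416 in distal barcodes, so both counts lie near the share of all genes. Proximal Gapdh stood at 172 and 211 CPM on day 14, between the control and day 11 (0.87, SE 0.32, adjusted p = 0.104), and Pfkp at 5.11 and 15.7 against 26.3 in the control (-1.41, SE 0.45, adjusted p = 0.0645, both by edgeR with Benjamini-Hochberg adjustment). DESeq2 also called 0 of the 10 in both classes. A missed threshold does not show equal levels. Fitted on the control and day 14 alone, 3 of the 10 genes were called in proximal and 3 in distal barcodes, and calls over all genes rose as well, to 2810 from 1438 and to 2029 from 397.

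**Figure D5:**
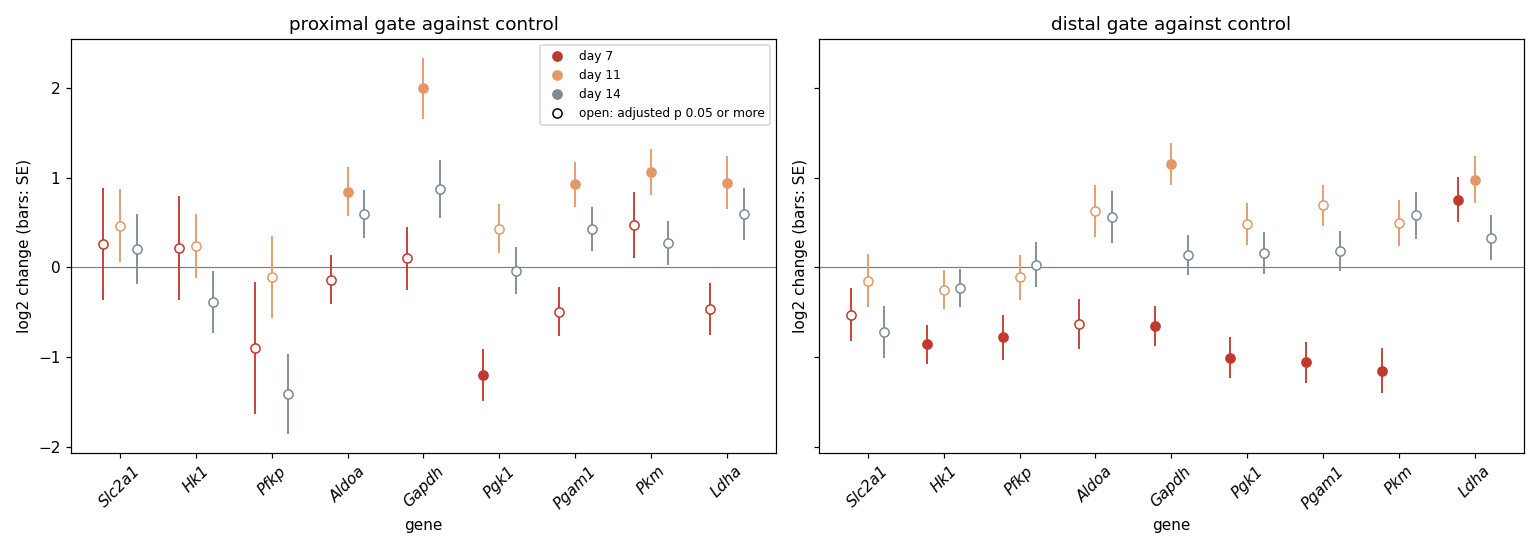
Log2 change against the control of 9 glycolysis genes on days 7, 11 and 14 in proximal (left) and distal (right) barcodes; bars are SE, and filled points passed an adjusted p of 0.05 (edgeR). Hk2 is not plotted, since its fitted changes rest on few or no UMIs in the control and depend on the prior count. Proximal Gapdh on day 11 is the highest point at 1.99, and 6 of the 9 genes pass below 0 in distal barcodes on day 7.

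From day 7 to day 11 in proximal barcodes 5 genes rose and 1 fell, where 17.1% of genes were called, 10.1% as higher and 7.03% as lower. Gapdh changed by 1.89 (SE 0.30), Pgk1 by 1.63 (SE 0.26), Pgam1 by 1.42 (SE 0.24), Ldha by 1.40 (SE 0.25) and Aldoa by 0.98 (SE 0.23). For each, both day 11 libraries lay above both day 7 libraries: Pgk1 stood at 315 and 351 against 58.9 and 110 CPM, and Ldha at 819 and 934 against 213 and 330. These genes were picked by their calls, and the share of all genes likewise apart was not counted. Hk2 fell, on 2 UMIs against 5 (ratio 0.0486, 95% counting interval 0.00463 to 0.297). That interval leaves out the spread between libraries. Hk2 passed the filter on low counts only through libraries of day 7 and earlier days after injury, where it is higher. The Hk2 call is therefore no separate support for a fall. Without day 11 replicate 2, 1203 genes were called in all, against 2482. Hk2 was not called when either day 11 library or day 7 replicate 2 was left out, nor with no UMI of a not-tubular marker allowed. Aldoa was not called without day 11 replicate 2 or with only the compared groups. Pkm, Slc2a1, Hk1 and Pfkp were not called. This comparison shares its day 7 and day 11 libraries with those against the control, so it is not separate evidence. The day 7 proximal sums come from 136 and 271 barcodes. Macrophage markers went from 2120 and 939 CPM on day 7 to 98.1 and 104 on day 11, erythroid markers from 1127 and 43.3 to 2679 and 1289, and the median mitochondrial share from 5.77% and 9.66% to 15.3% and 11.7%. The part of these in the change was not tested. A comparison of injured barcodes between days 7 and 11 could not be fitted, since day 11 held 6 and 1 such barcodes.

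Distal barcodes on day 7 had 8 of the 10 genes called. Of the 10 genes 6 fell (Gapdh, Hk1, Pfkp, Pgam1, Pgk1 and Pkm) and 2 rose (Hk2 and Ldha), where 22.9% of 12416 genes were called, 10.6% as higher and 12.3% as lower. The median of the 10 was -0.72 against 0.014 over all genes tested. Pkm stood at 487 CPM in the control and at 147 and 267 on day 7 (-1.15, SE 0.25, adjusted p = 0.00264). Pgam1 stood at 173 and then 63.2 and 92.2 (-1.06, SE 0.23, adjusted p = 0.00234), Pgk1 at 277 and then 102 and 158 (-1.004, SE 0.23, adjusted p = 0.00378), Hk1 at 134 and then 62.4 and 76.9 (-0.86, SE 0.22, adjusted p = 0.00790), Pfkp at 105 and then 42.1 and 70.5 (-0.78, SE 0.25, adjusted p = 0.0326) and Gapdh at 110 and then 53.4 and 76.9 (-0.65, SE 0.23, adjusted p = 0.0469), all by edgeR with Benjamini-Hochberg adjustment. In all 6 genes both day 7 libraries lay below the control. The 6 were picked by their calls, and the share of all genes likewise below the control was not counted. The single libraries of days 1, 2 and 4 lay below the control too for Pkm (228, 256 and 326) and Hk1 (63.9, 91.6 and 84.9).

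Hk2 and Ldha went the other way. Hk2 had no UMI in 1214 distal barcodes of the control and 16 and 49 UMIs on day 7 (13.0 and 11.7 CPM). With the control set at a floor of 3 counts, day 7 was 28.8-fold higher over the group on TMM-scaled totals. The exact 95% counting interval for the ratio starts lower, at 22.8. Hk2 was called with adjusted p = 1.37e-05 (edgeR with Benjamini-Hochberg adjustment). It passed the filter on low counts only through libraries of days 1, 2, 4 and 7, where it is high, so this p-value is no separate support. Against that floor Hk2 was 38.5-fold higher in the day 1 library (16.0 CPM), 14.5-fold on day 2 (6.03) and 17.3-fold on day 4 (7.21). These are single libraries without replicates, and their 95% counting intervals start at 29.3, 10.4 and 12.7. On days 11 and 14 Hk2 had 2 UMIs and 1 UMI over the 2 libraries of a day, under the floor. Hk2 was seen in 4.92% and 4.62% of distal barcodes on day 7, and 1 barcode of replicate 2 held 13 of its 49 UMIs. Ldha stood at 138 CPM in the control, at 187, 258 and 280 on days 1, 2 and 4, and at 165 and 275 on day 7 (0.76, SE 0.26, adjusted p = 0.0409, edgeR with Benjamini-Hochberg adjustment).

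These calls were not equally firm. Pkm kept its call in all 22 alternatives, while Gapdh lost it in 15 and Ldha in 14. Hk2 was called in all 22 as well, but each used the same lone control with no distal Hk2 UMI, so this is no separate support. In barcodes of 1000 to 5000 UMIs 1354 of all genes were called, against 2848, and 2 of the 10 genes. With distal convoluted markers 2 were called as well, but day 7 replicate 1 then held 16 barcodes and was left out, so that fit changed the markers and also left day 7 with 1 library, assumed to vary like the other days. Without either day 11 library 5 were called, and without day 7 replicate 1 Pfkp and Gapdh were not, nor Ldha without replicate 2. DESeq2 called 4. The median mitochondrial share of distal barcodes was 33.8% in the control and 4.32% and 6.12% on day 7. Collecting duct markers summed to 1515 CPM in distal barcodes of the control and 3119 and 3700 on day 7, with none of the 5 at 0. Macrophage markers summed to 3.95 CPM in distal barcodes of the control, with 3 of the 7 (C1qb, C1qc and Tyrobp) at 0, and to 543 and 168 on day 7, with none at 0. Erythroid markers summed to 5.70 CPM in the control and to 537 and 18.5 on day 7, with Alas2 at 0 in replicate 2. The part of these cell types in the result was not tested.

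Whether distal and proximal changes differed was tested directly, as a comparison added after the data were seen. On day 7 it called 3 of the 10 genes, where 11.2% of 14514 genes were called. Given as the distal minus the proximal change, the difference for Ldha was 1.21 (SE 0.22, adjusted p = 6.86e-06), while the difference was -1.51 for Pkm (SE 0.42, adjusted p = 0.00702) and -0.78 for Gapdh (SE 0.27, adjusted p = 0.0406), by edgeR with Benjamini-Hochberg adjustment. On day 11 Gapdh alone of the 10 was called (-0.86, SE 0.20, adjusted p = 0.00355 by the same edgeR test with Benjamini-Hochberg adjustment), where 4.11% of genes were called, 2.49% with a negative difference. Its rise was larger in proximal than in distal barcodes. Pkm on day 7 lost the call without day 7 replicate 1 and without replicate 2, Gapdh on day 7 lost it without either of these and without day 2 or day 4, and Gapdh on day 11 without day 11 replicate 2 (-0.61). Ldha on day 7 kept it without each library in turn except the control, which could not be left out. Its call was lost when only the compared groups were fitted (1.15, adjusted p = 0.0582 by edgeR). With distal convoluted markers and day 7 replicate 2 alone the difference was 0.43, and the call was lost too. Over 22 alternatives the day 7 call was lost in 2 for Ldha, 5 for Pkm and 13 for Gapdh, and the day 11 call of Gapdh in 4. DESeq2 was among them for Pkm and for Gapdh on both days.

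How the 10 genes varied together is given over the 25 sums of library and class, which share libraries and depth. Pearson's r of a gene with the mean of the 10 was 0.911 for Aldoa, 0.812 for Pgk1, 0.785 for Slc2a1 and 0.767 for Pkm. It was -0.0585 for Ldha and -0.294 for Hk2. Hk1 and Pkm were the closest pair (0.929), and Gapdh and Pgam1 followed (0.892), while Hk1 and Ldha ran opposite (-0.756). Among 3299 other genes with at least 50 CPM on average, the 5 most like the mean of the 10 were Prkar1a (0.891), Sumo2, Mtx2, 1300002E11Rik and Hadhb (0.880).

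On build mm10 with GENCODE M21, Hk1 lies on chromosome 10 (62268855 to 62379908, minus strand), Pfkp on 13 (6579768 to 6648777, minus), Gapdh on 6 (125161715 to 125166467, minus) and Pgk1 on X (106187100 to 106203699, plus). Pgam1 lies on 19 (41911923 to 41918660, plus), Pkm on 9 (59656368 to 59679375, plus), Ldha on 7 (46841475 to 46855627, plus) and Aldoa on 7 in 2 annotated entries (126795234 to 126800751 and 126800790 to 126809108, minus). Gene counts do not say which exon, intron or UTR a read came from. Counts of several of the genes may hold reads of others. In GENCODE M21, genes on the opposite strand overlap Hk1, Hk2, Pfkp, Aldoa, Gapdh and Slc2a1, and genes on the same strand overlap Pkm and Slc2a1. The labels do not state whether counting used strand. Gapdh, Pgk1, Pgam1 and Ldha are known for processed pseudogenes, whose reads may be shared with them.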

How the data were processed

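Single cells of mouse kidney cortex were profiled in 10 libraries, each deposited by the authors as a table of whole-number counts per gene and cell barcode, read here as unique molecular counts. Bowtie2 2.2.7 and build mm10 are named in the submitters' processing notes. Counting, strand use and barcode filters of the authors are not given in the sources used here. Barcodes with at least 500 counts, 500 genes and at most 50% mitochondrial counts were kept. No doublet caller was run. Counts were summed per library and class where at least 30 barcodes were present, and tested with edgeR 4.0.16 in R 4.3.3 (TMM, filterByExpr, quasi-likelihood test, Benjamini-Hochberg adjustment over all genes tested, threshold 0.05). The SE restates the test, as the log2 change over the square root of F. Comparisons between classes had library as block, and comparisons of days 1 term per group. Totals are per library, and intervals cover counting error only. DESeq2 1.42.0, other scalings, filters, gates and leaving out each library were alternatives. The code was tested on simulated data. The 10 genes and all lists were chosen with earlier results of these data known. Other genes were named only from 3 lists, where they passed the threshold for injured against proximal barcodes, or as stated. The scale log2(CPM + 1) for ratios within a library, the tests of distal against proximal changes, the split of distal barcodes, the shares of barcodes and the motif search were added after the data were seen. For 1 listed gene, the values are not reported here, though the counts and medians of its list include it.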

Additional observations from a re-analysis of the deposited data

Results flagged for a closer look

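The distal to proximal difference of Slc2a1 in day 7 replicate 1 was 4.35 in log2(CPM + 1), while the other 9 libraries lay between 1.24 and 2.51. The gap to the nearest library took 0.592 of the range, above Dixon's critical value of 0.466 for 10 libraries. The proximal sum of that library held 0 UMIs of Slc2a1 in 136 barcodes, which sets its value. Of 19 groups tested 1 stood out, and chance flags about 1 in 20.

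The remaining results are changes against the control that differed between distal and proximal barcodes by a direct test. Ldha on day 7 differed by 1.21, Pkm on day 7 by -1.51, Gapdh on day 7 by -0.78 and Gapdh on day 11 by -0.86, each as the distal minus the proximal log2 change and each in the same direction in both libraries of the day.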

How the results depend on the processing

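The limits are these. The control and days 1, 2 and 4 have 1 library each, the barcode classes rest on few marker counts, and Hk2 has few UMIs outside injured and day 7 distal barcodes. Over all comparisons, 696 alternative values of called changes of the 10 genes kept direction and call, 114 kept direction without the call and 0 reversed. Of the uncalled, 1351 stayed so, 39 became called and 77 changed sign. The cause of each change was not tested. Hk2 could not be tested in injured barcodes with lower gates or with 1000 to 5000 UMIs, nor in proximal barcodes on day 7 or from day 7 to day 11 with only the compared groups, where Pgk1 alone lost its day 7 call (-1.06), and leaving out the control left no comparison with it. DESeq2 moved the higher share of calls from 48.6% to 30.7% for the distal minus proximal change on day 7 and from 39.5% to 27.3% on day 11. Replicate numbers did not pair the libraries: the correlation of replicate differences between days was -0.047 to 0.080. With the number as a replicate block, 5 of the 10 genes were called from day 7 to day 11 in proximal barcodes, against 6: Hk2 was not tested there, and the other 5 called genes kept their calls. With distal convoluted markers day 7 replicate 1 held too few barcodes and dropped out, so those values also rest on 1 day 7 library. Counts of calls over all genes that moved by over 1.5 times were as follows. With DESeq2 they were 11 against 597 (distal minus proximal change, day 11 against control), 531 against 1627 (distal minus proximal change, day 7 against control), 527 against 1625 (distal, day 11 against control), 74 against 397 (distal, day 14 against control), 1177 against 2848 (distal, day 7 against control). With 1000 to 5000 UMIs they were 107 against 597 (distal minus proximal change, day 11 against control), 667 against 1627 (distal minus proximal change, day 7 against control), 823 against 1625 (distal, day 11 against control), 148 against 397 (distal, day 14 against control), 1354 against 2848 (distal, day 7 against control), 1645 against 2794 (injured against proximal). With distal convoluted markers only they were 307 against 597 (distal minus proximal change, day 11 against control), 576 against 1627 (distal minus proximal change, day 7 against control), 910 against 1625 (distal, day 11 against control), 1115 against 2848 (distal, day 7 against control). With higher gates they were 396 against 597 (distal minus proximal change, day 11 against control). With thick limb markers only they were 191 against 597 (distal minus proximal change, day 11 against control), 1059 against 1625 (distal, day 11 against control), 190 against 397 (distal, day 14 against control). With the 5% deepest barcodes left out they were 240 against 597 (distal minus proximal change, day 11 against control). With only the compared groups they were 693 against 1627 (distal minus proximal change, day 7 against control), 2801 against 1625 (distal, day 11 against control), 2029 against 397 (distal, day 14 against control), 2810 against 1438 (proximal, day 14 against control), 858 against 2046 (proximal, day 7 against control). With at most 25% mitochondrial UMIs they were 219 against 397 (distal, day 14 against control). With no filter on low counts they were 707 against 397 (distal, day 14 against control). With lower gates they were 1272 against 2794 (injured against proximal), with the control, day 11 replicate 1 and both day 14 libraries also taken in. With no library block they were 691 against 2794 (injured against proximal). Leaving out each library in turn gave 239 to 755 (distal minus proximal change, day 11 against control), 304 to 2694 (distal, day 11 against control), 98 to 1013 (distal, day 14 against control), 1068 to 2911 (injured against proximal), 1367 to 4361 (proximal, day 11 against control), 1203 to 2758 (proximal, day 11 against day 7), 712 to 2238 (proximal, day 14 against control). Counts of calls over the 10 glycolysis genes that moved by over 1.5 times were as follows. With DESeq2 they were 0 against 1 (distal minus proximal change, day 11 against control), 1 against 3 (distal minus proximal change, day 7 against control), 4 against 8 (distal, day 7 against control). With 1000 to 5000 UMIs they were 0 against 1 (distal minus proximal change, day 11 against control), 1 against 3 (distal minus proximal change, day 7 against control), 2 against 8 (distal, day 7 against control), 1 against 2 (proximal, day 7 against control). With only the compared groups they were 2 against 1 (distal minus proximal change, day 11 against control), 1 against 3 (distal minus proximal change, day 7 against control), 4 against 2 (distal, day 11 against control), 3 against 0 (distal, day 14 against control), 4 against 8 (distal, day 7 against control), 3 against 0 (proximal, day 14 against control), 0 against 2 (proximal, day 7 against control). With thick limb markers only they were 0 against 1 (distal minus proximal change, day 11 against control), 5 against 8 (distal, day 7 against control). With distal convoluted markers only they were 1 against 3 (distal minus proximal change, day 7 against control), 4 against 2 (distal, day 11 against control), 1 against 0 (distal, day 14 against control), 2 against 8 (distal, day 7 against control). With higher gates they were 1 against 3 (distal minus proximal change, day 7 against control). With the 5% deepest barcodes left out they were 5 against 8 (distal, day 7 against control), 1 against 0 (proximal, day 14 against control), 1 against 2 (proximal, day 7 against control). With lower gates they were 3 against 5 (proximal, day 11 against control) and 0 against 3 (injured against proximal). The latter fit also took in the control, day 11 replicate 1 and both day 14 libraries, and Hk2 was not tested in it. With no library block the calls over the 10 genes were 1 against 3 (injured against proximal). With no filter on low counts they were 2 against 0 (proximal, day 14 against control). With at most 25% mitochondrial UMIs they were 1 against 2 (proximal, day 7 against control). With no not-tubular UMI they were 1 against 2 (proximal, day 7 against control). Leaving out each library in turn gave 0 to 1 (distal minus proximal change, day 11 against control), 1 to 3 (distal minus proximal change, day 7 against control), 0 to 6 (distal, day 11 against control), 0 to 2 (distal, day 14 against control), 5 to 9 (distal, day 7 against control), 1 to 5 (proximal, day 11 against control), 0 to 2 (proximal, day 14 against control), 1 to 2 (proximal, day 7 against control). Sign changes among the 10 genes were all in changes not called. For distal minus proximal change, day 11 against control the values were Ldha 0.029 (DESeq2), Ldha 0.031 (DESeq2 size factors), Ldha 0.0062 (1000 to 5000 UMIs), Ldha 0.022 (lower gates), Ldha 0.023 (the 5% deepest barcodes left out), Pfkp 0.00062 (DESeq2), Pfkp 0.0093 (higher gates), Pfkp 0.062 (no not-tubular UMI), Pgk1 -0.030 (at most 25% mitochondrial UMIs), Pgk1 -0.019 (distal convoluted markers only), Pgk1 -0.012 (higher gates), Pgk1 -0.0033 (no filter on low counts), Pgk1 -0.0092 (only the compared groups). For distal minus proximal change, day 7 against control the values were Pfkp -0.13 (DESeq2), Pfkp -0.0033 (1000 to 5000 UMIs), Pfkp -0.023 (lower gates). For distal against proximal the values were Pgam1 0.027 (1000 to 5000 UMIs), Pgam1 0.15 (distal convoluted markers only). For distal, day 11 against control the values were Hk1 0.027 (1000 to 5000 UMIs), Hk1 0.043 (distal convoluted markers only), Slc2a1 0.31 (1000 to 5000 UMIs), Slc2a1 0.39 (distal convoluted markers only), Slc2a1 0.18 (the 5% deepest barcodes left out). For distal, day 14 against control the values were Pfkp -0.071 (at most 25% mitochondrial UMIs), Pfkp -0.021 (only the compared groups). For distal, day 7 against control the values were Slc2a1 0.10 (distal convoluted markers only). For injured against proximal the values were Gapdh 0.010 (at most 25% mitochondrial UMIs), Gapdh 0.060 (higher gates), Gapdh 0.057 (3 proximal UMIs in injured barcodes), Gapdh 0.085 (lower gates), Gapdh 0.026 (no filter on low counts), Hk1 -0.045 (3 proximal UMIs in injured barcodes), Hk1 -0.0023 (lower gates). For proximal, day 11 against control the values were Pfkp 0.17 (1000 to 5000 UMIs). For proximal, day 11 against day 7 the values were Hk1 -0.028 (DESeq2), Hk1 -0.028 (DESeq2 size factors), Hk1 -0.29 (higher gates), Hk1 -0.31 (lower gates), Hk1 -0.018 (no not-tubular UMI), Hk1 -0.054 (only the compared groups), Hk1 -0.050 (replicate block), Hk1 -0.42 (the 5% deepest barcodes left out), Slc2a1 -0.026 (1000 to 5000 UMIs). For proximal, day 14 against control the values were Hk1 0.076 (1000 to 5000 UMIs), Pgk1 0.022 (at most 25% mitochondrial UMIs), Pgk1 0.0068 (higher gates). For proximal, day 7 against control the values were Aldoa 0.033 (only the compared groups), Gapdh -0.017 (lower gates), Gapdh -0.0086 (no filter on low counts), Slc2a1 -0.041 (the 5% deepest barcodes left out). Leaving out each library in turn gave Ldha -0.17 to 0.15 (distal minus proximal change, day 11 against control), Pfkp -0.29 to 0.22 (distal minus proximal change, day 11 against control), Pgk1 -0.020 to 0.037 (distal minus proximal change, day 11 against control), Pfkp -1.16 to 1.13 (distal minus proximal change, day 7 against control), Slc2a1 -0.93 to 6.82 (distal minus proximal change, day 7 against control), Slc2a1 -0.35 to 0.050 (distal, day 11 against control), Pfkp -0.15 to 0.19 (distal, day 14 against control), Gapdh -0.056 to 0.10 (injured against proximal), Hk1 -0.21 to 0.75 (injured against proximal), Pfkp -0.32 to 0.084 (proximal, day 11 against control), Hk1 -0.089 to 0.14 (proximal, day 11 against day 7), Pfkp -0.18 to 1.43 (proximal, day 11 against day 7), Slc2a1 -0.36 to 8.99 (proximal, day 11 against day 7), Pgk1 -0.043 to 0.0057 (proximal, day 14 against control), Aldoa -0.35 to 0.067 (proximal, day 7 against control), Gapdh -0.57 to 0.46 (proximal, day 7 against control), Pfkp -1.55 to 0.073 (proximal, day 7 against control), Slc2a1 -8.53 to 0.82 (proximal, day 7 against control).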
